A study of Mus musculus with 4 samples.

Results

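Liver endothelial genes are the 33 transcripts chosen here by name as markers of the cells that line the vessels of the liver, out of 18193 genes named on the array. A subset of 7 (Stab1, Stab2, Lyve1, Clec4g, Fcgr2b, Gpr182 and Gata4) was taken as markers of the sinusoids. The other 26 are called other vascular genes, although sinusoids also express some of them, such as Flt4 and Mrc1. The source was a slice of whole liver from each of 4 males, 9 months old, with 1 Affymetrix array per mouse. The 2 AB6F1 males had AJ mothers and B6 fathers, and the 2 B6AF1 males had B6 mothers and AJ fathers. All 4 mice ate chow in a pathogen-free facility and received no intervention. The labels call the mice biological replicates but do not say whether they shared a litter or a cage. Animal identifiers fall in a separate run for each cross, so handling of a batch and cross cannot be told apart. Differences are AB6F1 minus B6AF1 on the log2 scale, and none of the 33 genes lies on the X, the Y or the mitochondrial genome, which are the parts that reciprocal males take from different strains.

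Sinusoidal endothelial cells form the wall between portal blood and hepatocytes. They are perforated by fenestrae without a diaphragm, lack a full basement membrane, and clear waste molecules through scavenger receptors such as the stabilins. Their identity depends on the transcription factor Gata4, and loss of it, or injury, turns them toward an ordinary capillary type with more Plvap. Endothelial cells also signal to hepatocytes: Bmp2 drives hepcidin, and Wnt2 and Rspo3 from the central vein maintain pericentral genes.

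Signal is the deposited intensity of a probe set, in arbitrary units, on arrays that the authors had scaled to a common trimmed mean of 500. Each gene was read on its brightest probe set, and signals of different genes are not comparable because probes differ. Median signals ran from 67.2 to 78.0 over the 4 arrays, and Pearson correlations of log2 signal across probe sets above the expression filter, which are not independent replicates, ran from 0.957 to 0.970. With 2 arrays in each cross, their number limits the precision, and an exact permutation test of any single gene cannot go below p = 0.333. P-values are therefore from limma, fitted over 11749 genes with a mean signal of at least 60.9, two-sided, with Benjamini-Hochberg adjustment over all of them. They set each difference against the spread between these mice, which limma moderates toward that of other genes of similar intensity.

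The vascular genes as a group lay at nearly the same level in both crosses. Of the 33 genes, 31 were tested, and Pecam1 and Vwf had mean signals below the filter. No gene among the 31 passed limma at an adjusted p of 0.05, where 0.213% of all tested genes passed (25 of 11749; 16 higher, 0.136%, and 9 lower, 0.0766%). A difference of 1 log2 unit or more in size was measured for 2 genes, Flt1 and Lyve1, and for 4.41% of all tested genes. The median log2 difference of the 31 genes was 0.02, the same as the 0.02 of all tested genes, and their median size without sign was 0.17 against 0.20. At an unadjusted limma p under 0.05 there were 4 genes, or 12.9%, against 9.72% of all tested genes. Lyve1, Cdh5 and Bmp2 were the 3 on the higher side, where 5.84% of all tested genes lay, and Ehd3 was the 1 on the lower side, where 3.88% lay. For 10 genes, 7 higher and 3 lower, both AB6F1 arrays lay on one side of both B6AF1 arrays (32.3%), against 41.2% of all tested genes. In bulk tissue, fewer endothelial cells and less RNA per cell cannot be told apart.

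The sign of the small differences depended on how arrays were scaled. Of the 31 genes, 19 were on the higher side in AB6F1, or 61.3% against 53.5% of all tested genes, but 12 after quantile normalization and 10 after centring each array on its median. Without B6AF1 replicate 1 it was 11, and without AB6F1 replicate 1 it was 13. That centring moved the median of all tested genes from 0.02 to -0.11, and the median of the vascular genes moved to -0.11 with it. The 95% interval of the difference held 0 for 27 genes, and for 19 genes it lay within 1 log2 unit on either side of 0. For the other genes a difference of that size, in one direction or the other, lay inside the interval.

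**Figure D1:**
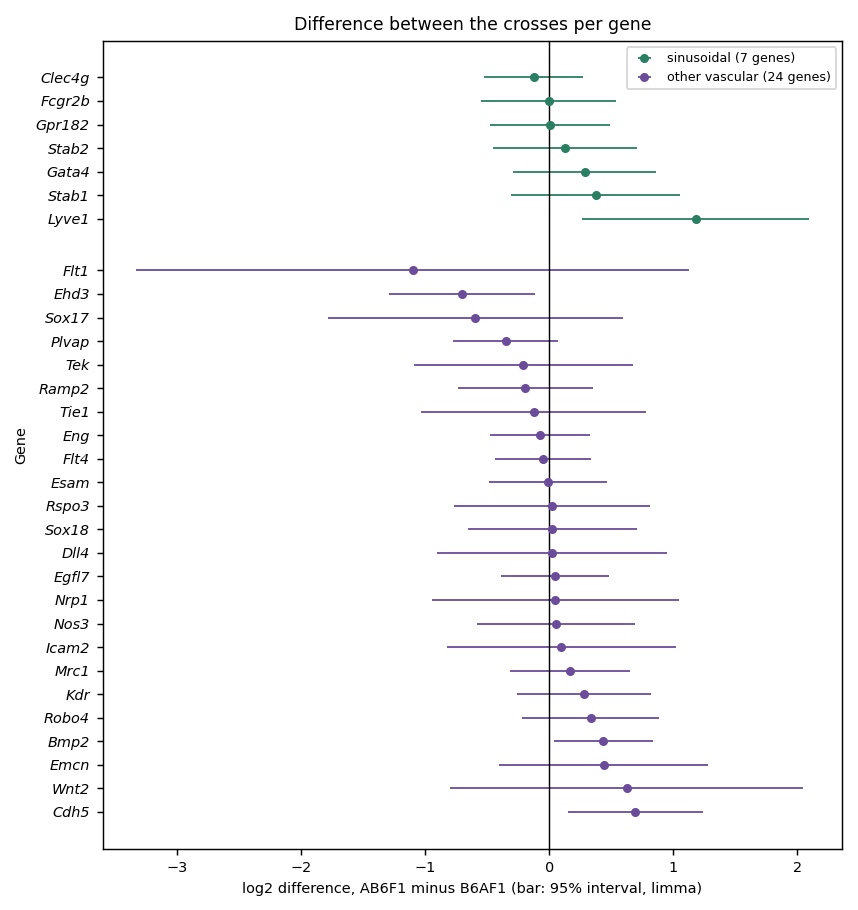
Log2 difference between AB6F1 and B6AF1 (x axis) for each of the 31 tested genes, with 95% intervals from limma as bars; green marks the 7 sinusoidal genes and purple the 24 other vascular genes. Intervals of Lyve1, Cdh5, Bmp2 and Ehd3 stay on one side of 0, and no gene had an adjusted p below 0.41.

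Scavenger receptors of the sinusoid overlapped between the crosses apart from Lyve1. Stab1 and Stab2 are the large receptors that clear hyaluronan, modified lipoproteins and collagen fragments. Stab1 read 426 and 354 in the AB6F1 mice against 230.2 and 389 in the B6AF1 mice, which is 0.37 ± 0.29 on the log2 scale (SE; limma adjusted p = 0.71). Stab2 gave 664 and 537 against 439 and 681, a difference of 0.13 ± 0.25 (limma adjusted p = 0.90). The second B6AF1 mouse lay between the AB6F1 mice for Stab1 and above both for Stab2, so the crosses overlapped. Clec4g, a C-type lectin of sinusoidal endothelium, gave 1703 and 1541 in AB6F1 and 1542 and 2031 in B6AF1, at -0.13 ± 0.17 (limma adjusted p = 0.84). Fcgr2b, the inhibitory Fc receptor that removes small immune complexes, gave 1466 and 982 against 1044 and 1387, at -0.0046 ± 0.23 (limma adjusted p = 0.996). The 95% intervals of Clec4g, from -0.52 to 0.27, and of Fcgr2b, from -0.55 to 0.54, did not reach 1 log2 unit. That of Stab1, from -0.31 to 1.06, did. Mrc1, the mannose receptor, which macrophages also carry, gave 921 and 751 against 632 and 866, at 0.17 ± 0.20 (limma adjusted p = 0.82). The other probe sets of Fcgr2b above the filter gave 0.15, 0.08 and 0.10, none with an interval that left out 0.

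Lyve1, a hyaluronan receptor of sinusoids and lymphatic vessels, had the smallest p of the 33 genes. It read 266 and 161 in the AB6F1 mice against 79.7 and 105 in the B6AF1 mice. Both AB6F1 mice lay above both B6AF1 mice, as for 22.5% of all tested genes on that side. The means were 214 ± 74.5 and 92.3 ± 17.8 (SD, n = 2 each), and the log2 difference was 1.18 ± 0.39, a 2.26-fold ratio of the geometric means (SE; unadjusted p = 0.0185 and adjusted p = 0.41 by limma). Its 95% interval ran from 0.27 to 2.09. By this p the gene ranked 529 among the 11749 tested. The second probe set of Lyve1, at 229.9 and 121 against 82.9 and 119, gave 0.75 ± 0.43 (limma adjusted p = 0.65) and also did not overlap, although only 121 against 119 kept the crosses apart. Without AB6F1 replicate 1 the difference was 0.82, and without AB6F1 replicate 2 it was 1.54, where limma gave adjusted p of 0.66 and 0.17.

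Gpr182, an atypical chemokine receptor of sinusoids, and Gata4, the regulator of sinusoidal identity, complete the sinusoidal genes. Gpr182 gave 489 and 435 in AB6F1 and 400.5 and 528 in B6AF1, at 0.0053 ± 0.21 (limma adjusted p = 0.996). The signals of Gata4 were 555 and 359.9 against 361 and 373, at 0.28 ± 0.24 (limma adjusted p = 0.75). AB6F1 replicate 1 alone stood above the rest for Gata4, and without it the difference was -0.03. A dimmer probe set of Gata4 gave -0.13 ± 0.36, with signals of 105 and 169 against 149.8 and 141.

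Set against each other, sinusoidal and other vascular genes did not separate the crosses beyond the spread between mice. The median log2 difference was 0.13 over the 7 sinusoidal genes and 0.02 over the 24 other tested genes, 0.10 apart. Some of the other genes, such as Flt4 and Mrc1, are also expressed by sinusoids, so the split does not separate cell types. The sinusoidal median turned to -0.029 without AB6F1 replicate 1, to -0.19 without B6AF1 replicate 1 and to -0.011 after median centring. Of the 7, 5 were on the higher side, but 4 after quantile normalization and 3 after median centring. The mean of the sinusoidal genes minus that of the others, each gene centred over the 4 arrays, came to 0.35 and -0.09 for the AB6F1 mice and to -0.25 and -0.02 for the B6AF1 mice. These values overlap, and their pooled SD between mice of a cross was 0.25. Without B6AF1 replicate 1 the difference of the medians was -0.12, and without AB6F1 replicate 1 it was -0.00.

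The larger pattern in the 7 sinusoidal genes lay between mice of the same cross. All 7 were higher in AB6F1 replicate 1 than in AB6F1 replicate 2, and all 7 were higher in B6AF1 replicate 2 than in B6AF1 replicate 1. The median gap was 0.31 in AB6F1 and 0.40 in B6AF1 on the log2 scale, against 0.03 and 0.01 over all tested genes. Over all tested genes, 53.5% were higher in that AB6F1 mouse and 51.5% in that B6AF1 mouse. As a mean of centred log2 signals, the 7 genes stood at 0.33 and -0.07 for AB6F1 and at -0.35 and 0.09 for B6AF1. The mean of the other 24 vascular genes varied less, at -0.02 and 0.02 in AB6F1 and -0.10 and 0.10 in B6AF1. Single genes among those 24 ran wider, Flt1 from -2.07 to 0.97. Of those 24, 14 were higher in AB6F1 replicate 1 and 19 in B6AF1 replicate 2. In a further list of sinusoidal genes, 6 of the 9 tested were higher in AB6F1 replicate 1 and 5 in B6AF1 replicate 2. Median gaps there were 0.58 and 0.11. Of the 10 receptor genes, which include Gpr182, 6 were higher in AB6F1 replicate 1 and all 10 in B6AF1 replicate 2. The hepatocyte list showed the same sides, with 11 of 12 tested genes higher in AB6F1 replicate 1 and 11 in B6AF1 replicate 2, at median gaps of 0.13 and 0.18. Since this pattern was noticed in the data, it has no test.

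Macrophage markers had the same highest and lowest mouse, AB6F1 replicate 1 and B6AF1 replicate 1, although the other 2 mice were in the opposite order. The 20 genes listed for Kupffer cells and other macrophages had 16 tested members, of which 15 were on the higher side in AB6F1, also after quantile normalization and median centring, and none passed limma after adjustment. Their median log2 difference was 0.76, but 0.44 without AB6F1 replicate 1 and 0.50 without B6AF1 replicate 1, the highest and the lowest mouse. There were 10 genes higher and 1 lower (Cd163, a scavenger receptor for haemoglobin complexes, at -0.85) at an unadjusted limma p under 0.05. These 11 made up 68.8% of the 16, against 9.72% of all tested genes (5.84% higher and 3.88% lower). Summed over the 20 genes, the AB6F1 mice read 26863 and 16034 and the B6AF1 mice 10985 and 14454. Within the crosses, 13 of the 16 were higher in AB6F1 replicate 1 and 15 in B6AF1 replicate 2. Lyz2, Lgals3 and C1qb were at 1.28 ± 0.26, 1.11 ± 0.27 and 1.12 ± 0.27 without overlap (limma adjusted p = 0.20, 0.28 and 0.28). None was at 0, and the defining Kupffer markers Clec4f and Vsig4 were at 0.29 ± 0.28 and 0.48 ± 0.33 (limma adjusted p = 0.78 and 0.67). Marco, Timd4, Fcgr1 and Itgam were below the filter. Macrophages are known to carry Stab1, Mrc1, Fcgr2b and, in some tissues, Lyve1. Their part in the values of these genes was not tested.

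**Figure D2:**
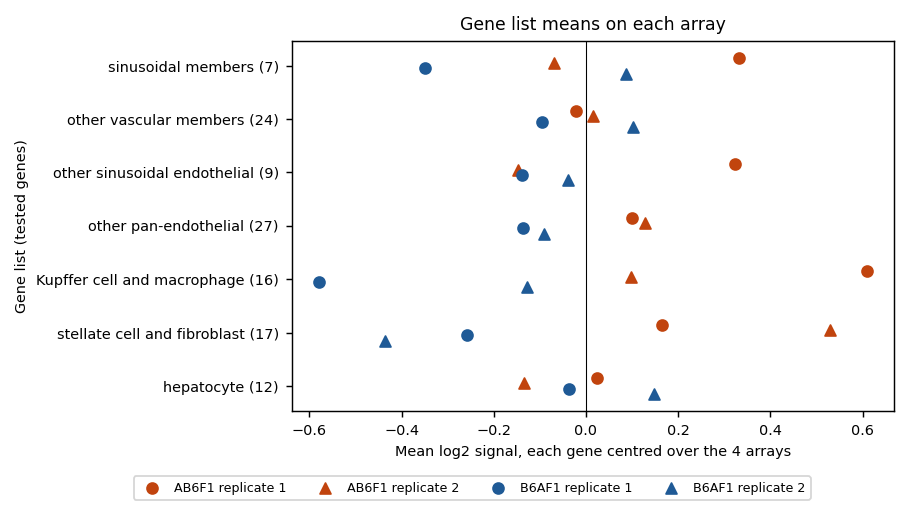
Mean log2 signal of each gene list on each array, with every gene centred over the 4 arrays (x axis); colour gives the cross, shape the replicate number, and brackets the number of tested genes. The means of the sinusoidal genes and of the macrophage list are both lowest in B6AF1 replicate 1 (-0.35 and -0.58). Both are highest in AB6F1 replicate 1 (0.33 and 0.61). The mean of the 24 other vascular genes stays between -0.10 and 0.10.

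Receptors for VEGF were measured on every array. Kdr, the main receptor for VEGF-A, gave 352 and 317 in AB6F1 and 243 and 311 in B6AF1, at 0.28 ± 0.23 (limma adjusted p = 0.73). The crosses did not overlap for Kdr, but the gap was 317 against 311. Flt4, the VEGF-C receptor that sinusoids share with lymphatics, gave 543 and 536 against 536 and 581 (-0.05 ± 0.16, limma adjusted p = 0.95). A dimmer probe set of Flt4 gave 137.5 and 193 against 89.6 and 187 and overlapped, at 0.33 ± 0.43 (limma adjusted p = 0.85). Flt1, the decoy receptor, gave 18.1 and 148 in AB6F1 and 109 and 113 in B6AF1. The single low value of AB6F1 replicate 1 gave Flt1 a difference of -1.10 ± 0.94 (limma adjusted p = 0.75), and without that mouse it was 0.41. Its 95% interval, from -3.33 to 1.13, is the widest among the 31 genes. The dimmer probe sets of Flt1, all below the filter, gave 52.3 and 58.4 against 52.9 and 24.6, and 51.1 and 10.6 against 27.1 and 29.9. The dimmest gave 9.2 and 8.5 against 18.7 and 17.2. AB6F1 replicate 1 was not the lowest mouse on any of them. Nrp1, a co-receptor for VEGF and semaphorins, gave 5954 and 2128 against 3121 and 3791, at 0.05 ± 0.42 (limma adjusted p = 0.98). The AB6F1 mice lay on both sides of the B6AF1 mice. Of the 3 further probe sets of Nrp1, 2 showed the same gap between the AB6F1 mice (2155 and 773; 1560.2 and 540.2) and the dimmest showed 155 and 133. Without AB6F1 replicate 2 the difference of Nrp1 was 0.79 (limma adjusted p = 0.043), and without AB6F1 replicate 1 it was -0.69 (limma adjusted p = 0.13).

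The angiopoietin receptors and other surface receptors did not differ between the crosses beyond their spread. Tek, the receptor that keeps vessels quiescent, gave 157 and 119 against 123 and 203, at -0.21 ± 0.37 (limma adjusted p = 0.88). Its partner Tie1 gave 92.1 and 130.1 against 114 and 125, at -0.13 ± 0.38 (limma adjusted p = 0.94). Both were dim, and their intervals exceeded 1 log2 unit on the lower side. Eng, the TGF-beta and BMP co-receptor endoglin, gave 644 and 711 in AB6F1 and 649 and 784 in B6AF1, at -0.08 ± 0.17 (limma adjusted p = 0.91). A dimmer probe set of Eng did not overlap, at 322 and 261 against 219 and 223 (0.39 ± 0.24, limma adjusted p = 0.66). Robo4, an endothelial roundabout receptor that stabilises vessels, gave 283 and 375 against 254 and 263. It did not overlap between the crosses, at 0.33 ± 0.23 (limma adjusted p = 0.68). Ramp2, the partner of Calcrl in the adrenomedullin receptor, gave 327 and 268 against 302 and 379, at -0.19 ± 0.23 (limma adjusted p = 0.82).

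**Figure D3:**
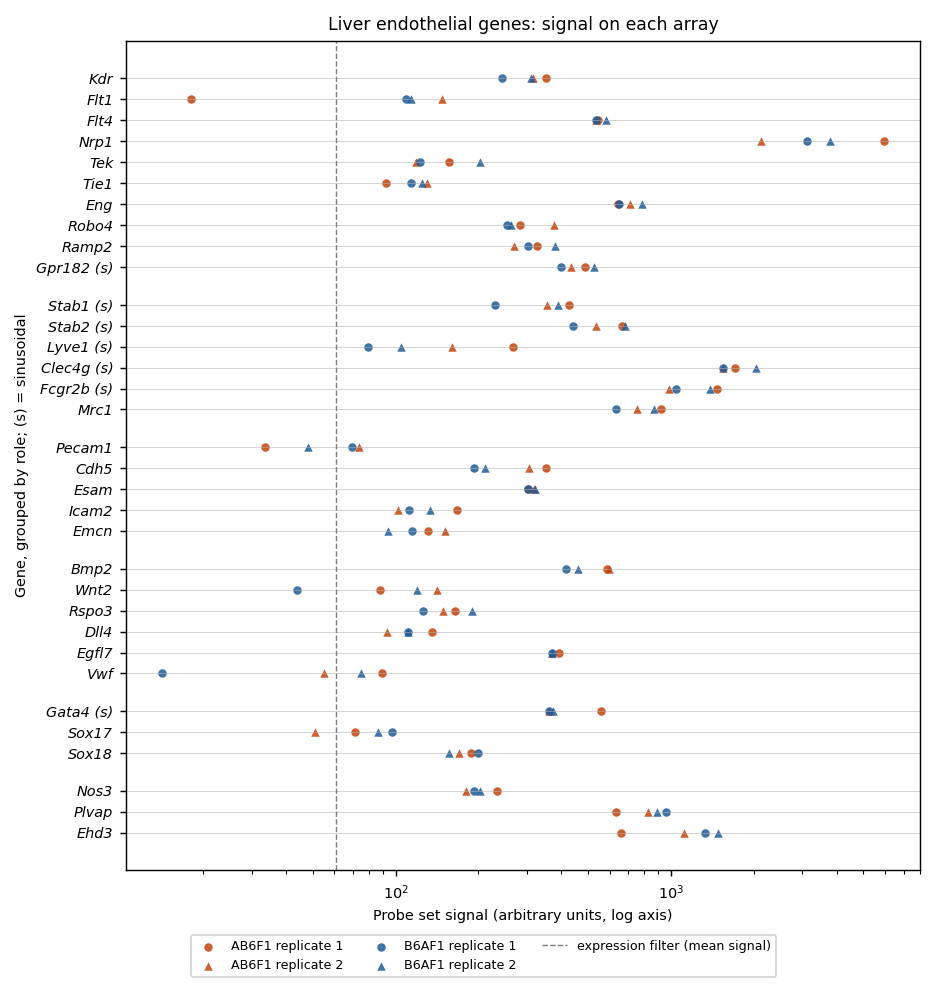
Probe set signal (log axis, arbitrary units) of each of the 33 genes on the 4 arrays, grouped by role; orange marks AB6F1, blue B6AF1, circles replicate 1, triangles replicate 2, and the dashed line the filter at a mean signal of 60.9. For Cdh5 the AB6F1 points (304 and 353) lie right of the B6AF1 points (193 and 212), while the single Flt1 value of 18.1 and the Vwf value of 14.2 lie far left of their other points.

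Junction and adhesion genes included one of the larger differences. Cdh5, VE-cadherin, the adhesion molecule of endothelial junctions, gave 353 and 304 in AB6F1 and 193 and 212 in B6AF1. The crosses did not overlap, the means were 329 ± 34.8 and 203 ± 13.3 (SD, n = 2 each), and the log2 difference was 0.69 ± 0.23 (SE; unadjusted p = 0.0189 and adjusted p = 0.42 by limma). Its 95% interval ran from 0.15 to 1.24, a 1.62-fold difference at the centre. A dimmer probe set of Cdh5, below the filter, gave 71.1 and 72.4 against 37.2 and 55.0 and did not overlap either. Esam, another junction protein, gave 303 and 319 in AB6F1 and 304 and 322 in B6AF1, at -0.01 ± 0.20 (limma adjusted p = 0.99). The 95% interval of Esam ran from -0.48 to 0.47. Icam2, a ligand of leukocyte integrins on resting endothelium, gave 167 and 102 against 112 and 134, at 0.10 ± 0.39 (limma adjusted p = 0.96). Emcn, the sialomucin endomucin, gave 132 and 151 against 115 and 94.1 without overlap, at 0.44 ± 0.36 (limma adjusted p = 0.73). Pecam1, a defining marker of all endothelium, was read at only 33.7 and 73.8 in AB6F1 and 69.4 and 48.1 in B6AF1. It was not tested, and its arrays overlapped. The label of the group therefore rests on Cdh5, Kdr, Stab2 and the other members above the filter rather than on Pecam1.

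Among secreted signals, Bmp2 was the one with an interval on one side of 0. Bmp2, the endothelial signal for hepcidin, gave 586 and 595 in AB6F1 and 415 and 459 in B6AF1. The crosses did not overlap, and the log2 difference was 0.44 ± 0.17 (SE; unadjusted p = 0.0364 and adjusted p = 0.48 by limma), or 1.35-fold. Wnt2 gave 88.1 and 142 against 43.9 and 119, at 0.63 ± 0.60 (limma adjusted p = 0.77). Rspo3 gave 164 and 149 against 126 and 189.8, at 0.02 ± 0.33 (limma adjusted p = 0.99). Both angiocrine genes overlapped between the crosses. Dll4, the Notch ligand of vessel sprouting, gave 136 and 93.3 in AB6F1 and 111 and 111 in B6AF1, at 0.02 ± 0.39 (limma adjusted p = 0.99). Egfl7, a secreted matrix protein of endothelium, gave 392 and 371 against 369 and 370.4. The crosses were apart by 370.6 against 370.4, at 0.04 ± 0.18 (limma adjusted p = 0.96), and its 3 other probe sets gave -0.05, 0.29 and -0.72, so that the probe sets differ in sign. Vwf, the platelet-binding factor of larger vessels, was below the filter at 89.1 and 54.8 against 14.2 and 75.1, and overlapped.

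The hepatocyte genes that are known to lie downstream of these signals did not share one direction. Of 18 genes listed for Bmp2 and Bmp6 or for Wnt2, Wnt9b and Rspo3, all were tested. On the higher side were 7, and on the lower side 11. After adjustment 1 of the 18 passed limma, where 0.213% of all tested genes passed. Quantile normalization put 8 on the higher side. The 1 was Cyp1a2, a pericentral cytochrome P450, which fell by 1.01 on the log2 scale (10674 and 10527 in AB6F1 against 20484 and 22375 in B6AF1, limma adjusted p = 0.026). Its call was lost without the intensity trend, without B6AF1 replicate 1 and without B6AF1 replicate 2 (limma adjusted p = 0.36, 0.30 and 0.51), while the difference stayed between -1.15 and -0.95 under every alternative. Hamp, hepcidin itself, gave 43063 and 38964 against 42305 and 42794, at -0.05 ± 0.12 (limma adjusted p = 0.91). Of the other BMP targets listed, Id1, Smad7 and Atoh8 were on the higher side, at 0.79 ± 0.50, 0.47 ± 0.26 and 0.39 ± 0.34. Smad6 was at -0.04 ± 0.29, and only Smad7 did not overlap. For Id1, Smad7, Atoh8 and Smad6 the limma adjusted p was 0.65, 0.62, 0.75 and 0.98. Notum and Lgr5, Wnt targets of pericentral hepatocytes, were at -0.67 ± 0.15 and -0.61 ± 0.20 without overlap (limma adjusted p = 0.25 and 0.42), whereas Rhbg, an ammonium transporter of the same zone, was at 0.89 ± 0.32 (limma adjusted p = 0.45).

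Among transcription factors, Sox18 had an estimate near 0 and Sox17 was dim. Sox18 gave 189 and 170.1 in AB6F1 and 199 and 156 in B6AF1, at 0.02 ± 0.29 (limma adjusted p = 0.99). Sox17, a factor of arterial endothelium, gave 71.2 and 51.2 against 96.7 and 86.5. The crosses did not overlap, as for 18.7% of all tested genes on the lower side, and the difference was -0.60 ± 0.50 (limma adjusted p = 0.74). A dimmer probe set of Sox17, below the filter, gave 21.3 and 70.8 against 35.4 and 24.4 and overlapped. The probe sets of Sox17 and Egfl7 (_x_at) and of Fcgr2b (_s_at) belong to kinds that can bind related transcripts.

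Ehd3 and Plvap were the remaining genes on the lower side without overlap. Ehd3, an EH-domain protein of endocytic recycling, gave 658 and 1120.3 in AB6F1 and 1326 and 1484 in B6AF1. The means were 889 ± 327 and 1405 ± 112 (SD, n = 2 each), and the log2 difference was -0.71 ± 0.25 (SE; unadjusted p = 0.0250 and adjusted p = 0.44 by limma). Its second probe set, at 799.7 and 981 against 1123 and 1284, gave -0.44 ± 0.17 (limma adjusted p = 0.50) and also did not overlap. The size rested on AB6F1 replicate 1: without that mouse the difference was -0.32 (limma adjusted p = 0.57), and without AB6F1 replicate 2 it was -1.09 (limma adjusted p = 0.016). Plvap, a protein of diaphragms and caveolae, gave 631 and 827 against 957 and 887, at -0.35 ± 0.18 (limma adjusted p = 0.59). Nos3, the endothelial nitric oxide synthase, was level at 233 and 180.1 against 193 and 202 (0.05 ± 0.27, limma adjusted p = 0.96).

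Several probe sets above the filter were available for 8 of the 31 genes. Of the 14 probe sets other than the brightest, 6 had the same sign as the brightest one. Lyve1, Ehd3 and Nrp1 kept one sign over all of theirs. Egfl7, Eng, Fcgr2b, Flt4 and Gata4 did not, and their brightest probe sets lay within 0.28 of 0. When all 45 probe sets of the vascular genes above the filter were tested separately, none passed limma after adjustment.

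**Figure D4:**
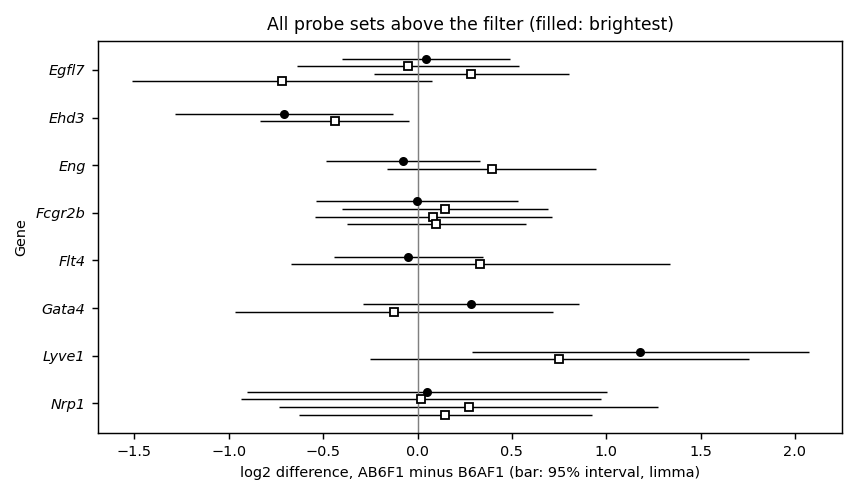
Log2 difference with 95% interval (x axis) for every probe set above the filter of the 8 genes that have several; filled circles mark the brightest probe set and open squares the others. Both probe sets of Ehd3 lie below 0 with their whole intervals (-0.71 and -0.44), both of Lyve1 lie above 0 (1.18 and 0.75), and those of Egfl7 spread from -0.72 to 0.29.

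Endothelial genes outside the 33 had a higher median difference than the 31 genes, which was not tested. A list of 38 further genes expressed across endothelium had 27 tested members, of which 20 were on the higher side (17 after quantile normalization, 14 after median centring). Their median was 0.24, but 0.11 after median centring and 0.11 without B6AF1 replicate 1. None passed limma after adjustment, and 7.41% had an unadjusted p under 0.05, against 9.72% of all tested genes. The 2 were Icam1 and Vcam1, adhesion molecules that inflamed endothelium displays to leukocytes. Icam1 gave 353 and 304 against 181 and 159, at 0.95 ± 0.24 (limma adjusted p = 0.30), and Vcam1 gave 347 and 243 against 129 and 200.3, at 0.86 ± 0.32 (limma adjusted p = 0.47). Other cells of the liver also make both. Klf2, a flow-responsive factor, was at 0.56 ± 0.25 and Cd93, a surface receptor of endothelial and myeloid cells, at 0.74 ± 0.31, both without overlap (limma adjusted p = 0.53 and 0.51).

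Of 14 further genes known from sinusoids, 9 were tested, 6 were on the higher side (5 after quantile normalization or median centring), and the median was 0.15, but 0.032 after quantile normalization, 0.014 after median centring and 0.096 without B6AF1 replicate 2. Thbd, the anticoagulant receptor thrombomodulin, gave 172 and 90.3 against 70.6 and 48.8, at 1.09 ± 0.52 without overlap (limma adjusted p = 0.56). Bmp6, the other endothelial signal for hepcidin, gave 70.1 and 32.3 against 66.2 and 132, at -0.97 ± 0.66 with overlap (limma adjusted p = 0.67). Clec1b, a C-type lectin, was at 0.48 ± 0.29, also overlapping (limma adjusted p = 0.65). Cd36, a fatty acid receptor that hepatocytes and macrophages also express, was at 0.72 ± 0.13 (limma adjusted p = 0.15).

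Ligands and partners of the receptors above held some differences of larger size than most of the 31 genes. Of 25 VEGF, angiopoietin, adrenomedullin, TGF-beta and Notch genes, 16 were tested, 10 were on the higher side (7 after quantile normalization or median centring), and none passed limma after adjustment. An unadjusted p under 0.05 was reached by 3 of the 16, or 18.8% against 9.72% of all tested genes, and 8 of the 16 did not overlap between the crosses, against 41.2% of all tested genes. The median size without sign was 0.26, while the signed median was 0.07 and turned to -0.069 after median centring and to -0.029 without AB6F1 replicate 1. Vegfa, the main ligand of Kdr, gave 994 and 809 in AB6F1 and 1039.5 and 896 in B6AF1, at -0.11 ± 0.17 (limma adjusted p = 0.87). Vegfb, a ligand of Flt1, gave 899 and 880.2 against 619 and 559, at 0.60 ± 0.15 (limma adjusted p = 0.31). Jag1, a Notch ligand, gave 263 and 265 against 153 and 101, at 1.08 ± 0.31 (limma adjusted p = 0.36). Tgfbr2, a TGF-beta receptor, was at 0.50 ± 0.16 and its ligand Tgfb1 at -0.67 ± 0.29 (limma adjusted p = 0.42 and 0.53). All but Vegfa of these 5 genes did not overlap between the crosses.

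Other cell types of the slice were set beside the endothelial values. The hepatocyte list was at a median of -0.10 with 11 of 12 tested genes on the lower side, but 7 of 12 after quantile normalization and 12 of 12 after median centring, which moved the median to -0.24. Without B6AF1 replicate 2, 6 of 12 were on the lower side and the median was 0.0049. Stellate cell and fibroblast genes had a median of 0.54, or 0.30 without AB6F1 replicate 2, over 17 tested genes, 14 on the higher side (13 after quantile normalization and 12 after median centring). At an unadjusted limma p under 0.05 there were 8 of the 17, or 47.1% against 9.72% of all tested genes. After adjustment 2 of the 17 passed limma, where 0.213% of all tested genes passed. They were the collagens Col3a1 and Col1a2, both higher (limma adjusted p = 0.0093 and 0.040). Both calls were lost without the intensity trend (0.35 and 0.32), without B6AF1 replicate 1 (0.16 and 0.34) and without B6AF1 replicate 2 (0.23 and 0.51), and that of Col1a2 also after quantile normalization (limma adjusted p = 0.052). Summed over the list, the AB6F1 mice read 21007 and 25488 and the B6AF1 mice 17093 and 16699. Neutrophil, lymphocyte, cholangiocyte and erythroid or platelet lists had 3 to 6 tested genes each and medians from 0.28 to 1.28, with no call after adjustment. The lymphocyte median of 0.28 turned to -0.17 without AB6F1 replicate 1 and to -0.12 without B6AF1 replicate 1, and was 0.72 without AB6F1 replicate 2. Leaving out B6AF1 replicate 2 gave a neutrophil median of 0.22 in place of 1.28, and leaving out B6AF1 replicate 1 gave 2.29. For cholangiocyte genes the median of 0.42 dropped to 0.26 when AB6F1 replicate 2 was left out and to 0.22 when B6AF1 replicate 1 was. The median of 0.02 for the 31 vascular genes lay below the medians of all lists but those of hepatocyte genes. These lists are not tests, and their part in the endothelial values was not tested.

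**Figure D5:**
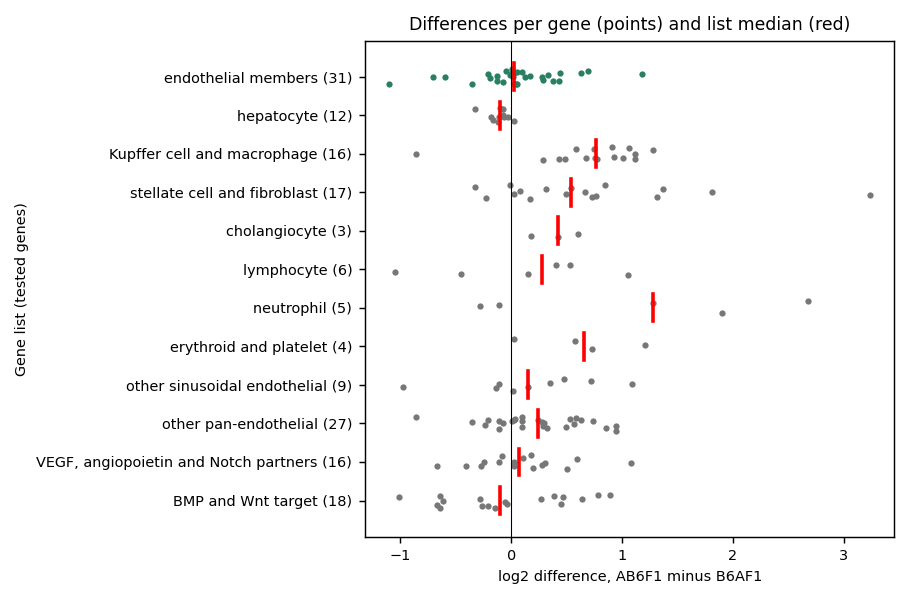
Log2 difference per tested gene (points) and list median (red bar) for the vascular genes (green) and the comparison lists (grey), with the number of tested genes in brackets. The vascular genes centre on 0.02 and spread from -1.10 to 1.18, while the macrophage list centres on 0.76.

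Upstream sequence was available in the RefSeq table for 18 of the 33 genes (mouse build GRCm38.p6), Lyve1, Cdh5 and Bmp2 not among them. The stretches below are the 250 bases before the annotated start of the 3 genes with the smallest p on the higher side and the 3 on the lower side that have one, printed from 5′ to 3′ so that the upstream DNA behind the measured transcripts can be seen. Capitals mark matches to AGGAAGT or CGGAAGT, cores of ETS-family sites, or to AGATAA or TGATAA, cores of GATA-family sites, on either strand. Robo4 (chr9:37401722-37401971, plus strand), Stab1 (chr14:31168642-31168891, minus strand) and Kdr (chr5:75978456-75978705, minus strand) are of the higher side. Ehd3 (chr17:73804591-73804840, plus strand), Flt1 (chr5:147726012-147726261, minus strand) and Clec4g (chr8:3720652-3720901, minus strand) are of the lower side, and none of the 6 passed the test.
Robo4: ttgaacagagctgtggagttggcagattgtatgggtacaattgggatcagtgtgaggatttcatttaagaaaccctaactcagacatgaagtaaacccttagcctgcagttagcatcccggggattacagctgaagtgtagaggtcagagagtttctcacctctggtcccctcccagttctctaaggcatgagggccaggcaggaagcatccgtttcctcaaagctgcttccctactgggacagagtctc
Stab1: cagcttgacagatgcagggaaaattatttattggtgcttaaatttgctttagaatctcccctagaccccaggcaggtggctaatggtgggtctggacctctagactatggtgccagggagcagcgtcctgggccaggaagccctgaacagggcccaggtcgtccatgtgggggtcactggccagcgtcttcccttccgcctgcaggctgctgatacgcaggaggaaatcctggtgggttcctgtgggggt
Kdr: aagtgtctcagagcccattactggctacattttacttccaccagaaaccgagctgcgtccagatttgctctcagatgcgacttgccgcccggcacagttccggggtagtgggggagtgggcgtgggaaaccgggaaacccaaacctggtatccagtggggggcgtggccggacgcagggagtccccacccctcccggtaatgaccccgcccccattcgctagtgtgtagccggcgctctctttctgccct
Ehd3: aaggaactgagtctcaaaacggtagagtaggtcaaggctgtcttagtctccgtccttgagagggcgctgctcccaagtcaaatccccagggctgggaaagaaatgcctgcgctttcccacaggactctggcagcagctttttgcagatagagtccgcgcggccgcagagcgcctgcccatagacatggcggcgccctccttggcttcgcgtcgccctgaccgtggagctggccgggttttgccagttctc
Flt1: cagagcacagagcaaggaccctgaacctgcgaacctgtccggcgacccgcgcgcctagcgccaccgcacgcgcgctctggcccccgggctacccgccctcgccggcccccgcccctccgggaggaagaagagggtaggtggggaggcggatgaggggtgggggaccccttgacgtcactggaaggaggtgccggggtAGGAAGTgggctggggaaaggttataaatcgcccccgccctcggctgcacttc
Clec4g: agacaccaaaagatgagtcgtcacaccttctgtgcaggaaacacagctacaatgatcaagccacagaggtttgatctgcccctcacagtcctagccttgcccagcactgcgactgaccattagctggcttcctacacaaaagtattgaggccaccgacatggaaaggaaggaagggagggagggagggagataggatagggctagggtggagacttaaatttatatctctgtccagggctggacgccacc

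Flt1 held AGGAAGT from base -53 to base -47 before its start, and the other 5 windows held none of the 4 words. Over the 18 genes, AGGAAGT was found in the windows of Egfl7, Eng, Flt1 and Mrc1 and TGATAA in those of Egfl7 and Wnt2. In 20 windows, 25% held an ETS word and 10% a GATA word, against 12.2% and 16.6% of all 32851 windows of the same length. A match is a description of letters, and its absence says nothing about a factor.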

How the data were processed

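Affymetrix arrays measured RNA from the livers of 4 mice. Per the submitters' processing notes the deposited intensity values are MAS5 signals, with no version given, and from the values each array had a mean of 500 with 2% of probe sets trimmed at each end, so a change shared by all transcripts is not seen. Scanner files were not analysed here, and the sources used here name no genome build.

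The table held 45101 probe sets, 64 of them controls. The platform annotation gave 1 symbol for 34945, several for 932 and none for 9160, and 34741 were updated through gene identifiers (RefSeq, GRCm38.p6). Each gene was its brightest probe set by mean log2 signal, with signals below 1 set to 1 and no pseudocount. Genes with a mean below the median probe set (60.9) were left out. Crosses were compared with limma 3.58.1 in R 4.3.3 (intensity trend, 4.97 prior and 2 residual degrees of freedom). The fit was also run on simulated data with independent noise of limma's own variances, which does not test the assumptions of the fit. Intervals are 95% intervals from the moderated variance. The genes and lists were chosen with earlier results of these data known, so lists are described by counts and medians. The rule for named genes was every one of the 33 genes in order of role and, from each other list, at most 4 genes of smallest p. Outside that rule, Hamp, Id1, Smad6, Smad7, Atoh8, Vegfa, Clec4f and Vsig4 were chosen after their values were seen. Alternatives were other scalings, filters, probe sets and variance settings, the replicate number as a block, and each array left out. No protein sequences were used here.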

Additional observations from a re-analysis of the deposited data

How the results depend on the processing

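No vascular gene passed limma after adjustment under any of the 13 alternatives except leaving out AB6F1 replicate 2, where 2 genes passed, Ehd3 and Nrp1 (0 to 2 over the arrays left out), among 242 genes in all. Of all tested genes 25 passed, against 0 without the intensity trend (limma, with 1044 genes at an unadjusted p under 0.05, against 1142), 49 after median centring and 1 to 242 when 1 array was left out, the 1 without either B6AF1 mouse. With the replicate block 62 genes passed, 40 higher and 22 lower, and no vascular gene. Deviations of mice with the same number correlated at -0.03 across all tested genes. Whether mice of the same number shared handling was not tested. The number of vascular genes on the higher side, 19 of 31, was 10 after median centring, 12 after quantile normalization, 7 of 13 with the filter at the 75th percentile (fewer genes tested) and 11 to 24 with an array left out. Their median of 0.02 became -0.11 after median centring and ran from -0.091 to 0.19 with an array left out. The difference of the sinusoidal and other medians, 0.10, ran from -0.12 to 0.23.

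Signs of values near 0 turned. With 1 array left out, so did the signs of Flt1, Wnt2 and Stab1, which were at -1.10, 0.63 and 0.37 on all 4 arrays. After median centring Dll4 was at -0.11, Egfl7 at -0.093, Gpr182 at -0.13, Icam2 at -0.041, Nos3 at -0.084, Nrp1 at -0.087, Rspo3 at -0.12, Sox18 at -0.11 and Stab2 at -0.011. After quantile normalization Dll4 was at -0.10, Egfl7 at -0.023, Gpr182 at -0.058, Icam2 at -0.021, Nos3 at -0.062, Rspo3 at -0.10 and Sox18 at -0.093. Without probe sets of suffix _x_at or _s_at Fcgr2b was at 0.15. With 1 array left out, which assumes that the lone mouse varies like the pair, 20 genes changed sign: Clec4g (-0.33 to 0.071), Dll4 (-0.25 to 0.30), Eng (-0.21 to 0.060), Esam (-0.049 to 0.034), Fcgr2b (-0.29 to 0.28), Flt1 (-2.62 to 0.41), Flt4 (-0.11 to 0.010), Gata4 (-0.029 to 0.60), Gpr182 (-0.19 to 0.20), Icam2 (-0.26 to 0.45), Mrc1 (-0.059 to 0.40), Nos3 (-0.13 to 0.24), Nrp1 (-0.69 to 0.79), Rspo3 (-0.28 to 0.32), Sox18 (-0.15 to 0.20), Stab1 (-0.0042 to 0.75), Stab2 (-0.19 to 0.44), Tek (-0.57 to 0.15), Tie1 (-0.37 to 0.12) and Wnt2 (-0.10 to 1.35). The cause of these turns was not tested. The 10 genes that kept their sign under every alternative include Lyve1, Cdh5, Bmp2, Ehd3 and Plvap. Dim probe sets limit what Flt1, Wnt2, Sox17, Tie1, Tek, Dll4, Emcn, Icam2 and also Lyve1 can show.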
